A study of Mus musculus with 24 samples.

Results

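The 12 libraries described here came from 6 mice that were never given doxycycline (dox), 3 of them PRDM13-OE and 3 wildtype. They were chosen from the 24 libraries of the series by their labels: genotype, no dox, and tissue, which was the neural retina or the eye cup of the same mouse. PRDM13-OE mice were heterozygous for a knock-in at the Rosa26 locus on a C57BL/6J background. In this insert the EF-1α promoter, which is active in most tissues, drives the reverse tetracycline transactivator, and the TRE3G promoter drives human PRDM13 with an HA tag. Wildtype mice were littermates without the insert. The eye cup is what is left of the globe after the neural retina has been lifted out, with RPE, choroid and sclera. Per the study, the dox of these groups began at P28, and the age of the untreated mice at collection is not stated beyond that. The other 12 libraries came from mice of both genotypes that drank dox at 2 mg/mL, sweetened with 10% sucrose, for 72 hours and are used here only as reference values. Dox and sucrose cannot be told apart where these mice are set beside the untreated ones.

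PRDM13 is a transcription factor of the PRDM family that restrains Ptf1a and Tlx genes in the developing neural tube and that adult amacrine cells of the retina express. A TetOn insert is meant to stay silent until dox lets the transactivator bind TRE3G, and transcription without dox is called leak. Comparing untreated carriers with untreated littermates therefore asks whether leak or the insertion itself leaves a trace in the transcriptome. Counts from human PRDM13 and from the insert were not analysed here, so leak was read only from mouse genes.

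Gene counts summed to between 15825059 and 23509542 per library. Tissue and sex were checked against markers. The summed rod markers lay between 76462 and 83424 CPM (counts scaled to a common library total) in the 6 retinas and between 3641 and 26064 CPM in the 6 eye cups, and the summed RPE and pigment markers between 657 and 1133 CPM in retinas and between 23492 and 54386 CPM in eye cups. Xist and Ddx3y gave the same sex for the retina and the eye cup of every mouse, with PRDM13-OE mice 1 and 2 and wildtype mouse 2 female. A called gene is one whose log2 fold change exceeded 1 in either direction with an edgeR quasi-likelihood p that stayed below 0.05 after adjustment. All log2 fold changes are PRDM13-OE over wildtype. The sources used here do not say how the mice were spread over litters, so p-values measure the spread between these mice.

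No gene was called in either tissue. In the retina 0 of 20668 genes passed (0%), where 778 had an unadjusted p under 0.05 and DESeq2 called 2. Of the 20668 genes, 420 were higher (2.03%) and 358 lower (1.73%) at an unadjusted p under 0.05, and 1026 (4.96%) lay higher and 940 (4.55%) lower with no overlap of the groups in CPM. In the eye cup 0 of 21588 genes passed in edgeR (0%), where 404 had an unadjusted p under 0.05 and DESeq2 called 3. The eye cup shares were 0.954% higher and 0.917% lower at an unadjusted p under 0.05, and 2.59% higher and 3.32% lower with no overlap. Without the mouse labelled PRDM13-OE mouse 1, described below, edgeR called 3 genes in the retina and 298 in the eye cup. The median log2 fold change over all genes was -0.00103 in the retina and -0.00429 in the eye cup.

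Gm13394 separated 2 of the 3 mice labelled PRDM13-OE from all wildtype littermates by a wide margin in both tissues. It is a processed pseudogene on the minus strand of chromosome 2 (GRCm39 chr2:28823622-28824621), a copy of Gapdh, the glycolytic enzyme gene on chromosome 6. Its 1000 annotated bases match the spliced Gapdh transcript at 999 positions in the annotated transcripts of the same build. The single difference is A346C, counted from 1 at the 5′ end of the pseudogene in the sense direction with the Gapdh base first. In Gapdh this base lies in coding exon 4 at position 125139979 of chromosome 6, and in the pseudogene at position 28824276 of chromosome 2. The stretch around it is shown because within the copied bases it is the only one at which a read can tell these genes apart, with the differing base in capitals.
Gapdh: agggtggagccaaaAgggtcatcatctcc
Gm13394: agggtggagccaaaCgggtcatcatctcc

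In the retina Gm13394 had 79, 8674 and 8023 counts in PRDM13-OE mice 1, 2 and 3, and 89, 46 and 89 counts in the wildtype mice. Eye cups of the same mice had 62, 5400 and 3290 counts in PRDM13-OE and 80, 32 and 94 in wildtype. Both tissues of the mouse labelled PRDM13-OE mouse 1 therefore sat at the level of the wildtype littermates, at 4.82 and 2.91 CPM against 1.98 to 4.28 CPM, while the other two mice of that label had at least 3290 counts per library. With dox, the lowest count in the 6 PRDM13-OE libraries was 4202 and the highest in the 6 wildtype libraries was 135, so the library pair labelled PRDM13-OE mouse 1 was the only one with that label at the wildtype level. Whether that mouse carries the insert was not tested, and each result below is given with and without it where it decides the result.

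Mean Gm13394 levels were 332 ± 284 CPM in PRDM13-OE retinas and 3.65 ± 1.01 CPM in wildtype retinas (SD, n = 3). The log2 fold change was 6.49 (SE 1.14), with an adjusted p of 0.628 in edgeR's quasi-likelihood test and 0.0116 in DESeq2. Without the library labelled PRDM13-OE mouse 1 it was 7.07, with an adjusted p of 7.15e-11 in the edgeR test. The eye cup log2 fold change was 5.75 (SE 1.44), with an adjusted p of 1 in the edgeR test and 0.000436 in DESeq2. Leaving out the same mouse gave 6.32 and an edgeR adjusted p of 0.00364. Gm13394 was the only gene that DESeq2 called in both tissues, and the only one that edgeR called in both without that mouse. That mouse had been singled out by its own Gm13394 counts, so p-values of this gene without it are no independent test.

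Gapdh itself showed no such split, with 5238, 204 and 2094 counts in PRDM13-OE retinas and 5537, 2617 and 181 in wildtype retinas. Its eye cup counts were 2609, 1106 and 138 in PRDM13-OE and 3719, 89 and 9620 in wildtype. The counts of this housekeeping gene thus spread widely within both genotypes. How reads that fit Gapdh and its copies equally well were counted is not given in the sources used here. Gm7336, a second Gapdh copy (chr7:51396395-51397626) that matches Gm13394 over 1000 aligned bases at 99.9% identity, had 412, 237 and 199 counts in PRDM13-OE retinas and 397, 369 and 405 in wildtype retinas. Relative to 2 other Gapdh copies, Gm5559 and Gm12070, its ratio was 0.808, 0.550 and 0.404 in PRDM13-OE retinas and 0.871, 0.944 and 0.786 in wildtype retinas. The eye cup ratios were 0.614, 0.340 and 0.393 against 0.731, 0.572 and 0.577. In each tissue PRDM13-OE mice 2 and 3 had the lowest ratios. This ratio was chosen after its values had been seen and was not tested.

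**Figure D1:**
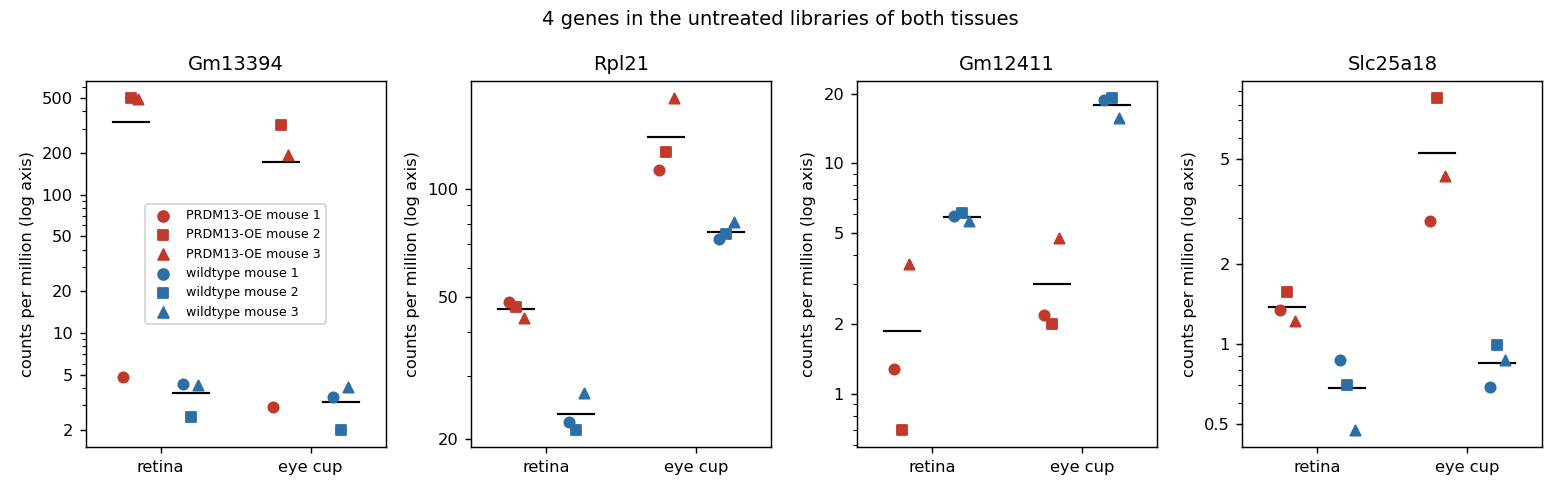
CPM on a log axis for Gm13394, Rpl21, Gm12411 and Slc25a18 in the 12 untreated libraries, by tissue, with 1 point per mouse and a bar at the mean of each group of 3. Gm13394 is near 500 CPM in the retinas of PRDM13-OE mice 2 and 3 and under 5 CPM in PRDM13-OE mouse 1 and all wildtype mice, while the other 3 genes separate the genotypes in both tissues.

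Genes whose libraries followed Gm13394 most closely are given as a description, since 4 high libraries against 8 low ones weigh most in the correlation. Over the 12 untreated libraries, with log2(CPM + 1) centred within each tissue, the highest Pearson r belonged to ENSMUSG00000120397 at 0.914, Pkd1 at 0.913 and Tmprss7 at 0.875. Pkd1, the polycystin gene, had 1674, 2101 and 2151 counts in PRDM13-OE retinas and 2205, 1870 and 1968 in wildtype retinas, so the genotypes overlapped despite the high r. The lowest r values were -0.938 for A630095N17Rik, -0.922 for Ncapg2 and -0.917 for Slc6a19. Ncapg2, a condensin subunit used in mitosis, had 61, 46 and 39 counts in PRDM13-OE retinas and 97, 83 and 87 in wildtype retinas. Its eye cup counts were 126, 44 and 43 in PRDM13-OE and 96, 91 and 97 in wildtype. There PRDM13-OE mouse 1 was above every wildtype mouse.

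Rpl21, which encodes a protein of the large ribosomal subunit, was the only gene with an adjusted p under 0.05 in the retina, and it missed the fold threshold. Its retinal counts were 792, 809 and 716 in PRDM13-OE and 464, 393 and 571 in wildtype. The groups did not overlap, and the library labelled PRDM13-OE mouse 1 lay with the other libraries of its label here. Mean levels of 46.3 ± 2.38 CPM in PRDM13-OE stood against 23.5 ± 3.02 CPM in wildtype (SD, n = 3). The log2 fold change was 0.98 (SE 0.098), with an adjusted p of 0.00595 in edgeR's quasi-likelihood test. That adjusted p was 0.0978 without wildtype mouse 1 and 0.93 when all 12 retinas, dox included, shared one estimate of spread. Eye cup counts of Rpl21 were 2411, 2141 and 3072 in PRDM13-OE and 1684, 1207 and 1853 in wildtype, again without overlap in CPM. The log2 fold change there was 0.88 (SE 0.22), with an unadjusted p of 0.00496 and an adjusted p of 1 in the edgeR test.

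Gm12411 moved the other way from Rpl21, of which it is a processed copy (chr4:45550017-45550499, plus strand). It matches the Rpl21 transcript at 479 of 483 bases, and the differences are C94T, G214A, T336C and G469A, counted from 1 at the 5′ end of the copy with the Rpl21 base first. All 4 fall in coding sequence of Rpl21. The surroundings of the first are printed to show how little separates the pair, with the differing base in capitals.
Rpl21: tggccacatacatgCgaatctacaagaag
Gm12411: tggccacatacatgTgaatctacaagaag

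Retinal counts of Gm12411 were 21, 12 and 60 in PRDM13-OE and 122, 113 and 119 in wildtype. Eye cup counts were 47, 34 and 81 in PRDM13-OE and 434, 311 and 361 in wildtype. The genotypes did not overlap in either tissue, and PRDM13-OE mouse 3 was the highest carrier in both. The log2 fold change was -1.64 (SE 0.40, unadjusted p 0.00138) in the retina and -2.58 (SE 0.39, unadjusted p 0.000301) in the eye cup, where it was the gene with the smallest p. Its edgeR adjusted p was 0.995 in the retina and 1 in the eye cup, where the DESeq2 adjusted p was 8.67e-05.

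Gm12411 made up between 1.46% and 7.73% of the counts of the Rpl21 pair in the 6 PRDM13-OE libraries and between 16.3% and 22.3% in the 6 wildtype libraries. Summed counts of the pair were 813, 821 and 776 in PRDM13-OE retinas against 586, 506 and 690 in wildtype retinas. In the mice given dox the share did not follow genotype. Retinas with dox had shares of 20.5%, 19.3% and 2.55% in PRDM13-OE and 4.74%, 17.6% and 23.8% in wildtype, and eye cups with dox 10.5%, 16.9% and 16.1% in PRDM13-OE and 14.5%, 3.65% and 21.96% in wildtype. Same-numbered retinas and eye cups with dox also differed from each other, with shares of 2.55% and 16.1% for PRDM13-OE mouse 3. Rpl21 with dox had a log2 fold change of 0.18 in the retina, with an adjusted p of 0.781 in edgeR's quasi-likelihood test. A difference that separated all untreated mice by genotype was therefore not seen in mice given dox.

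The same question was put to all genes at once by asking which had an unadjusted p under 0.05 in both tissues. Of 19121 genes tested in both, 33 met this with the same sign (0.173%), 13 higher and 20 lower in PRDM13-OE, and 4 met it with opposite signs. None passed an adjusted test of the larger p of the pair, whose smallest adjusted value was 1 in the edgeR fits, and DESeq2 called 1 gene, Gm13394, in both. Groups did not overlap in either tissue for 58 genes of the same sign (0.303%), 25 higher and 33 lower, while 50 did so with opposite signs. Over all 19121 genes the sign was the same in 46.9%. When retina and eye cup counts were summed per mouse, 0 of 23912 genes were called in edgeR (0%), 594 had an unadjusted p under 0.05, and DESeq2 called 7. Without the mouse labelled PRDM13-OE mouse 1 the summed counts gave 24 genes called higher and 488 called lower. An interaction test of whether the genotype difference itself differed between the tissues called 0 of 23912 genes in edgeR (0%), with 351 at an unadjusted p under 0.05 and 0 in DESeq2. Without that mouse it called 49, all more negative in the eye cup than in the retina.

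**Figure D2:**
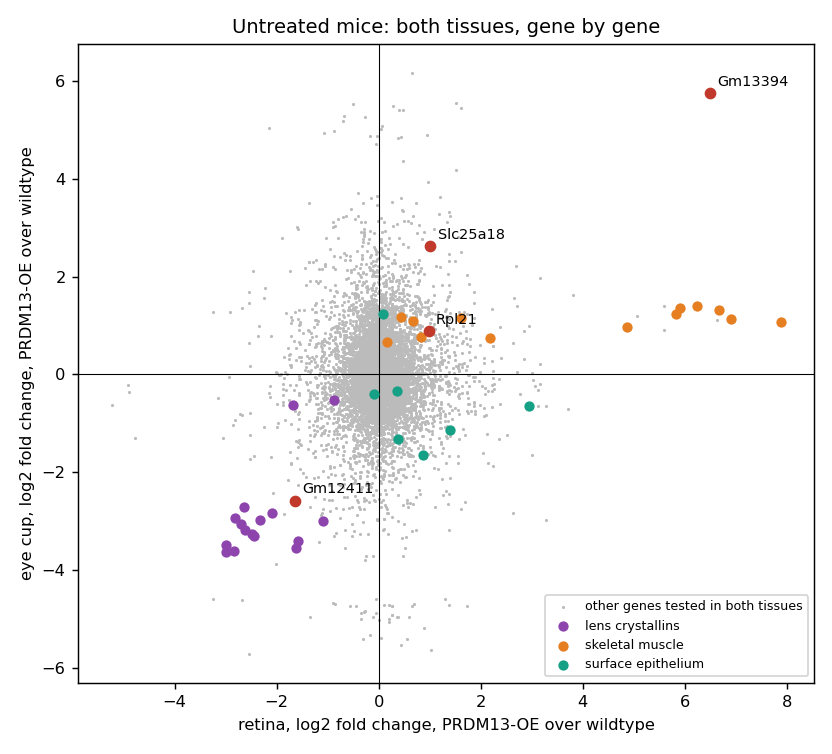
Log2 fold change in the retina (x axis) against that in the eye cup (y axis) of the untreated mice, 1 point per gene tested in both tissues, with marker lists coloured and 4 genes named. Gm13394 stands alone at 6.49 and 5.75, the lens crystallins lie at the lower left, and skeletal muscle genes reach far to the right in the retina while staying near 1 in the eye cup.

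Slc25a18, a mitochondrial glutamate carrier, was among the 13 genes higher in both. It had 22, 27 and 20 counts in PRDM13-OE retinas and 18, 13 and 10 in wildtype retinas. Eye cup counts were 62, 144 and 74 in PRDM13-OE and 16, 16 and 20 in wildtype. The genotypes did not overlap in either tissue, at low counts. The log2 fold change was 1.01 (SE 0.35, unadjusted p 0.0133) in the retina and 2.62 (SE 0.52, unadjusted p 0.00134) in the eye cup, where the edgeR adjusted p was 1 and the DESeq2 adjusted p 0.0153. With dox the retinas had 28, 29 and 30 counts in PRDM13-OE and 10, 18 and 10 in wildtype, with a log2 fold change of 1.17 and an adjusted p of 0.0285 in the edgeR test. The eye cups with dox overlapped, with 50, 20 and 50 counts against 31, 50 and 12.

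Of the 20 genes lower in both, 15 were on a lens list, and 3 of the 13 higher in both were on the skeletal muscle list. Outside these lists, Slc15a2, a peptide transporter, had 313, 377 and 340 counts in PRDM13-OE retinas and 808, 562 and 465 in wildtype retinas. This gave a log2 fold change of -0.56 (SE 0.16, unadjusted p 0.00486). Eye cups had 299, 238 and 227 against 485, 536 and 455 counts, a log2 fold change of -0.83 (SE 0.25, unadjusted p 0.0133). Reps1, an adaptor protein of endocytosis, was lower by smaller amounts, with log2 fold changes of -0.36 (SE 0.10) and -0.43 (SE 0.16). Groups of both genes were apart in both tissues, and with dox their retinal log2 fold changes were 0.37 and 0.07. Plat, the tissue plasminogen activator, was higher by 0.32 (SE 0.12) in the retina and 1.32 (SE 0.45) in the eye cup on the log2 scale. Gm42047, a long noncoding RNA gene, was higher by 0.43 (SE 0.17) and 0.88 (SE 0.34). The 4 genes of opposite sign were Bmpr1b, Chl1, 6330415G19Rik and Selenbp1, the first with log2 fold changes of -0.67 in the retina and 1.29 in the eye cup.

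Mouse Prdm13, which the insert leaves intact, did not separate the genotypes. Retinal counts were 841, 936 and 775 in PRDM13-OE and 922, 963 and 1021 in wildtype. Means were 51.0 ± 3.47 and 48.2 ± 3.81 CPM (SD, n = 3), and the log2 fold change of 0.08 had a 95% interval from -0.099 to 0.26. Eye cup counts were 117, 209 and 0 in PRDM13-OE and 171, 13 and 87 in wildtype, and the 95% interval ran from -2.75 to 3.89. Of the 12 genes listed for the PRDM13 network, 7 were tested in the retina and 8 in the eye cup, and none had an unadjusted p under 0.05 in either. Median log2 fold changes over the tested members were 0.01 and 0.28. In the wider PRDM family 0 of 12 tested members had an unadjusted p under 0.05 in the retina. In the eye cup 1 of 13 did, Mecom, which was lower by 1.44 (SE 0.57) on the log2 scale. At that p 2.03% of all genes were higher and 1.73% lower in the retina, and 0.954% and 0.917% in the eye cup.

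Genes that dox changes were read in the untreated mice as a second view of leak. With dox, 495 of 20560 retinal genes were called between the genotypes (2.41%), 186 higher and 309 lower in PRDM13-OE. These dox libraries share no sample with the untreated ones. Of the 186 higher genes, 170 were tested in the untreated retina, where 8 were higher (4.71%) and 4 lower (2.35%) at an unadjusted p under 0.05, against 2.03% higher and 1.73% lower of all retinal genes, with a median log2 fold change of -0.033 against 1.55 with dox. Of the 309 lower genes, 302 were tested, where 3 were higher and 33 lower (10.9%), with a median of -0.045 against -1.55 with dox. Of those 33, 17 were on the lens lists. Outside the lens lists 16 of 280 were lower (5.71%), with a median of -0.020 in all mice and -0.166 without the library labelled PRDM13-OE mouse 1. In the untreated eye cup the same genes outside the lens lists had 16 of 280 lower (5.71%) and 4 higher. Among the 150 tested of the higher genes, 5 were higher (3.33%) and 0 lower, against 0.954% higher and 0.917% lower of all eye cup genes. No member of either group was called in edgeR with all mice, and DESeq2 called Gm13394 in both tissues. Without the mouse labelled PRDM13-OE mouse 1, edgeR called members in the eye cup, where 1.38% of all genes were called lower. Gm13394 and Slc25a18 of the higher genes were called higher, but Slc5a8 and Tmem79 of that group were called lower. Among the lower genes P2ry2, Lgals3 and Krt19 were called lower.

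**Figure D3:**
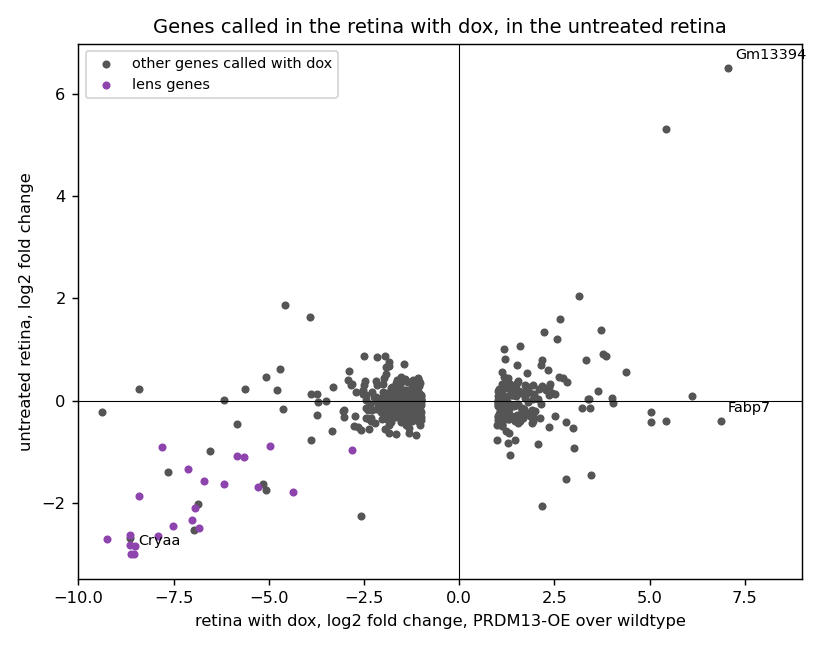
Log2 fold change with dox (x axis) against that without dox (y axis) in the retina, 1 point per gene called with dox and tested in both, with lens genes in purple. Apart from Gm13394 and the lens genes, most points lie close to 0 on the y axis, and Fabp7, at 6.86 with dox, is at -0.40 without it.

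Fabp7, a fatty acid binding protein of glial and progenitor cells, had between 1763 and 1849 counts in the 3 PRDM13-OE retinas given dox. Untreated PRDM13-OE retinas had 13, 23 and 12 counts and untreated wildtype retinas 37, 13 and 27. The groups overlapped, and the log2 fold change was -0.40 (SE 0.40, unadjusted p 0.344). In the untreated eye cup Fabp7 had 73, 118 and 93 counts in PRDM13-OE and 48, 17 and 25 in wildtype, which did not overlap. Its log2 fold change there was 1.90 (SE 0.47, unadjusted p 0.00445), with an adjusted p of 1 in the edgeR test. The difference between the tissues had an unadjusted p of 0.00204 and an adjusted p of 1 in the interaction test. Eye cups given dox had 885, 271 and 1438 counts in PRDM13-OE and 28, 50 and 13 in wildtype.

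Other strong dox genes had counts at or near 0 without dox. AY702102 had no count in any of the 12 untreated libraries, and a count of 0 allows up to 3 counts per library. Gm7135 had 8, 0 and 5 counts in PRDM13-OE retinas and none in wildtype retinas, against 31, 38 and 35 in PRDM13-OE retinas with dox. At these counts its retinal log2 fold change was 5.31 without dox and 5.43 with dox. The unadjusted p without dox was 0.0117 in edgeR's quasi-likelihood test. Eye cups had 1, 0 and 4 counts in PRDM13-OE and none in wildtype. Hmga2-ps1 overlapped between the genotypes, with 2, 12 and 6 against 6, 8 and 2 counts in the retina. These are low counts in which mouse 1 had the most Gm7135 in the retina and the least Hmga2-ps1.

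A list of 29 dox-response genes holds mostly genes that the study names. Of these 29, 1 was higher and 5 lower at an unadjusted p under 0.05 in the untreated retina. In the untreated eye cup 2 were higher and 3 lower. Of all genes, 1.73% in the retina and 0.917% in the eye cup were lower at that p. The lens crystallin genes Cryaa, Crygb and Crybb3 were among the lower genes of the list in both tissues. The list was drawn up with earlier results of this series known. Some members are not named in the study's text, among them Fabp7, 1 of the 2 higher in the eye cup. Median log2 fold changes were -0.0024 in the retina and 0.017 in the eye cup. They were -0.082 and 0.14 without the mouse labelled PRDM13-OE mouse 1, and the eye cup median was 0.49 without wildtype mouse 1. Nr2e3, the rod identity factor, had a log2 fold change of 0.04 (SE 0.094) in the untreated retina and -1.40 with dox. Pde6c, the cone phosphodiesterase subunit, had 1527, 1366 and 1424 counts in untreated PRDM13-OE retinas and 2534, 1920 and 2003 in wildtype retinas. Its log2 fold change of -0.30 (SE 0.097, unadjusted p 0.00857) was opposite in sign to the 1.31 with dox. Gnat2, the cone transducin subunit, was lower by 0.15 (SE 0.063, unadjusted p 0.0381) on the log2 scale without dox and by 1.85 with dox.

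Carrier status could also mark the chromosome around the insert. Rosa26 itself, Gt(ROSA)26Sor (chr6:113043843-113054294), a noncoding gene whose locus hosts the knock-in, had 152, 161 and 167 counts in PRDM13-OE retinas and 229, 240 and 220 in wildtype retinas. These did not overlap in CPM, at 9.60 ± 0.514 and 11.5 ± 1.35 (SD, n = 3), and the log2 fold change was -0.25 (SE 0.14, unadjusted p 0.0892). The eye cup counts were 128, 129 and 128 against 180, 113 and 153, with a log2 fold change of -0.019 (SE 0.26). With dox the retinal gene was higher by 0.66 in PRDM13-OE on the log2 scale, with an adjusted p of 0.00302 in edgeR's quasi-likelihood test. Its neighbours Setd5 and Thumpd3 had retinal log2 fold changes of -0.053 and -0.0027 without dox. Eef1a1, the endogenous gene whose human ortholog gave the EF-1α promoter, had log2 fold changes of 0.000704 in the retina and 0.00743 in the eye cup. Mouse Eef1a2 was the sixth member of this list, in which Gm13394 was the 1 gene of 6 with an unadjusted p under 0.05 in either tissue. A list of 5 genes (Gm13394, Hmga2-ps1, Gm7135, AY702102 and Rpl21) was picked because its members rose in earlier work on these data, so its members are given only one by one.

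Within 1 Mb of Rosa26, 1 of 44 tested genes had an unadjusted p under 0.05 in the retina (2.27%) and 0 of 47 in the eye cup. The retinal gene was Mtmr14, a lipid phosphatase, higher by 0.20 (SE 0.090) on the log2 scale. Over all genes the shares were 3.76% and 1.87%. A window of 15 Mb, chosen after the values had been seen, held 10 such genes of 267 in the retina (3.75%) and 6 of 269 in the eye cup (2.23%). Slc25a18 lies in that window at chr6:120750539-120771297. These shares were close to those over all genes.

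**Figure D4:**
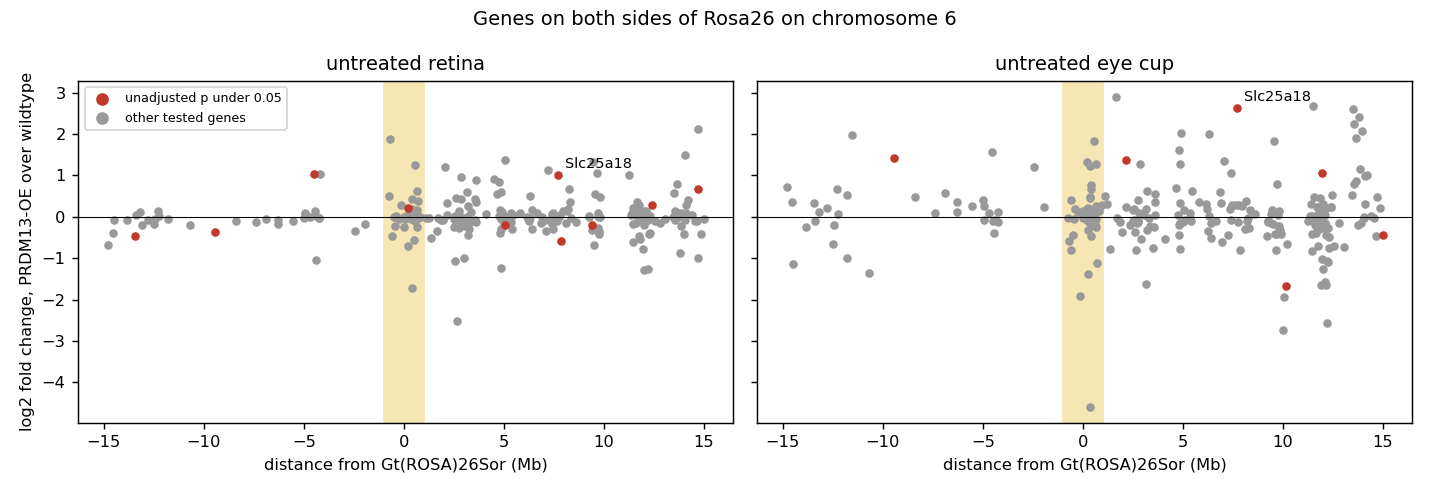
Log2 fold change of genes within 15 Mb of Gt(ROSA)26Sor on chromosome 6 in the untreated retina (left) and eye cup (right), by distance from it, with red points for genes at an unadjusted p under 0.05 and a shaded band for the nearest 1 Mb on each side. Red points are scattered across the window, and 1 retinal gene and no eye cup gene in the band is red.

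Lens genes were 15 of the 20 genes lower at an unadjusted p under 0.05 in both tissues. Crystallins are the soluble proteins of the lens, a tissue that neither sample was meant to hold. In the retina 15 of 16 crystallins were lower at an unadjusted p under 0.05 and none higher, with a median log2 fold change of -2.47 and no overlap for 12. In the eye cups 13 of 16 were lower and none higher, with a median of -3.12 and no overlap for 10. Of all genes, 1.73% in the retina and 0.917% in the eye cup were lower at that p. With no overlap, 4.55% and 3.32% of all genes lay lower. Cryaa had 446, 14 and 530 counts in PRDM13-OE retinas and 6600, 1094 and 2238 in wildtype retinas. No crystallin was called, and the smallest adjusted p was 0.995 in the retina and 1 in the eye cup in edgeR's quasi-likelihood test.

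Summed crystallin levels were 125, 41.3 and 168 CPM in PRDM13-OE retinas and 1000, 244 and 357 CPM in wildtype retinas. In the eye cups they were 598, 427 and 656 CPM against 4402, 1143 and 754 CPM. Wildtype mouse 1 was the highest in both tissues, and without it the medians were -1.54 and -1.33. In the mice given dox the sums ran from 31.3 to 55.6 CPM in PRDM13-OE retinas and from 170 to 12935 CPM in wildtype retinas. Bfsp1, a beaded filament protein of lens fibres, had 26, 11 and 35 counts in PRDM13-OE retinas and 132, 74 and 96 in wildtype retinas, with a DESeq2 adjusted p of 0.00444. Of 9 tested genes on the second lens list, 3 were lower in each tissue at an unadjusted p under 0.05. The shares over all genes were 1.73% in the retina and 0.917% in the eye cup. In bulk tissue, fewer cells of a type and less RNA per cell cannot be told apart, and lens carried over at dissection was not tested as a source.

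Skeletal muscle genes were higher at an unadjusted p under 0.05 for 8 of 13 tested members in the retina and 3 of 13 in the eye cup, against 2.03% and 0.954% of all genes. Their summed levels were 92.8, 29.0 and 29.8 CPM in PRDM13-OE retinas and 28.0, 24.6 and 26.2 CPM in wildtype retinas. The high value was that of the library labelled PRDM13-OE mouse 1, and the median log2 fold change was 4.87 with it and 0.18 without it. Myl1, a fast-muscle myosin light chain, had 66, 2 and 1 counts in PRDM13-OE retinas and 0, 0 and 1 in wildtype retinas. In the eye cup, which can carry extraocular muscle, Myl1 had 4347, 4655 and 6328 counts in PRDM13-OE and 2506, 2240 and 1951 in wildtype. That log2 fold change was 1.36 (SE 0.29, unadjusted p 0.00234). The same library had the highest sum of fibroblast markers among the retinas, 176 CPM against 96.6 to 140 CPM in the others, and 4 of 10 of those markers were higher at an unadjusted p under 0.05. The median of that list was 0.66 with it and -0.075 without it. RPE and pigment markers summed to 1133, 657 and 837 CPM in PRDM13-OE retinas and 772, 824 and 785 CPM in wildtype retinas, again highest in that library, with a median of 0.26 with it and -0.29 without it.

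Surface epithelium, meaning keratins and other genes of cornea and conjunctiva, split the PRDM13-OE eye cups among themselves. The 10 markers summed to 22338, 1491 and 1441 CPM in PRDM13-OE and to 16261, 17770 and 14468 CPM in wildtype. Krt5, a basal keratin, had 172572, 6845 and 7640 counts in PRDM13-OE and 98104, 86839 and 101376 in wildtype. With all mice, no marker of this list had an unadjusted p under 0.05, of 10 tested in the eye cup and 7 in the retina. PRDM13-OE mice 2 and 3 were low, and the library labelled PRDM13-OE mouse 1 lay above every wildtype library. In mice given dox the same sum ran from 8308 to 38365 CPM in PRDM13-OE and from 7888 to 15796 CPM in wildtype eye cups, so no carrier given dox was as low. Without that library, 290 of 20998 genes were called lower (1.38%) and 8 higher, and 8 of the 10 surface epithelium markers were among the lower genes. In 288 of the 290 the left-out library was at or above the lowest wildtype library, and in 254 it was above all of them. The 8 higher genes were Gm13394, Fbxo2, Id4, Mmd2, Tmod2, Sparcl1, Slc25a18 and Nrcam. Tissue taken with the eye cup at dissection was not tested as a source of these differences.

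**Figure D5:**
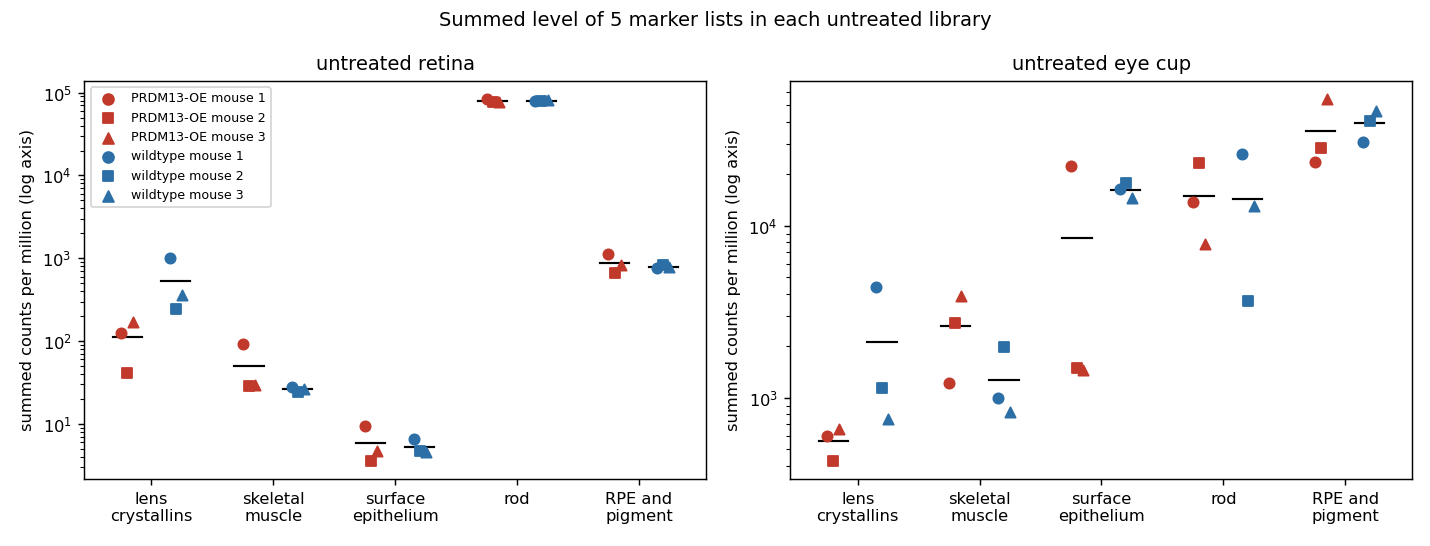
Summed CPM (log axis) of 5 marker lists in each untreated retina (left) and eye cup (right), with 1 point per mouse and a bar at the mean of each group of 3. Rod levels of the retinas overlap between the genotypes, lens crystallins are lower in all PRDM13-OE libraries, and surface epithelium in the eye cup is at 1491 and 1441 CPM in PRDM13-OE mice 2 and 3.

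Cone markers were the neuronal list with the most low members in the untreated retina. There 1 of 14 rod markers was higher, 4 of 12 cone markers and 1 of 11 ganglion cell markers were lower at an unadjusted p under 0.05, and none of 13 amacrine, 12 bipolar or 7 horizontal cell markers was, against 1.73% of all retinal genes lower at that p. Summed cone markers were 1748, 1628 and 1703 CPM in PRDM13-OE and 1798, 1768 and 1799 CPM in wildtype retinas, which did not overlap. Median log2 fold changes of these 6 lists lay between -0.08 and 0.01. Besides Pde6c and Gnat2 the cone genes were Arr3, the cone arrestin, lower by 0.56 (SE 0.17), and Cngb3, a cone channel subunit, lower by 0.28 (SE 0.086) on the log2 scale. No member of the 6 lists had an unadjusted p under 0.05 in the eye cup. Their medians there lay between 0.04 and 0.40, and between 0.65 and 1.13 without wildtype mouse 1, the eye cup with the most rod transcripts.

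A few glial markers differed in each tissue. Gfap, the filament protein that reactive astrocytes and Müller glia raise, had 14395, 23022 and 23987 counts in PRDM13-OE eye cups and 2529, 9038 and 11277 in wildtype eye cups. The groups did not overlap, and the log2 fold change was 1.57 (SE 0.61, unadjusted p 0.0363, edgeR adjusted p 1). The glutamate transporter gene Slc1a3 and the potassium channel gene Kcnj10 were higher there by 1.21 (SE 0.44) and 1.13 (SE 0.42) on the log2 scale, 2 of 11 Müller glia markers. Gfap was the 1 of 11 reactive glia genes higher at that p in the eye cup, where 0.954% of all genes were. In the retina Gfap had 781, 645 and 560 counts against 689, 657 and 718, and overlapped. Cebpd and Bcl3 were higher among 10 reactive glia genes tested in the retina, Apoe among 11 Müller glia markers, and 1 of 11 microglia markers, all at an unadjusted p under 0.05, against 2.03% of all retinal genes. No microglia or fibroblast marker reached that p in the eye cup. Among the untreated retinas, summed reactive glia, Müller glia and microglia markers were each highest in the library labelled PRDM13-OE mouse 1. Retinal median log2 fold changes of these lists were 0.027, 0.037 and 0.13 with it, and -0.045, 0.017 and 0.070 without it. With dox, Gfap in the eye cup overlapped, with 5134, 9164 and 4467 counts against 8739, 12195 and 2390.

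The remaining lists held few such genes. In neither tissue did a member of the RPE and pigment (14 genes), endothelial (10), red blood cell (5), white blood cell or heat shock (10) lists have an unadjusted p under 0.05. Without the mouse labelled PRDM13-OE mouse 1, edgeR called 1 white blood cell gene, Itgam, and 1 heat shock gene, Hspa1b, lower in the eye cup, at adjusted p 0.0135 and 0.0373, where 1.38% of all genes were called lower. No sex-linked gene had an unadjusted p under 0.05 in either tissue with all mice. Fosl2 was higher among 15 immediate early genes in the retina and Egr3 in the eye cup. The interferon response list had none of 18 in the retina and 1 of 19 in the eye cup, Mx1. Of 16 clock genes 1 was higher in the retina, and of 11 p53 targets 1 was lower. Of 14 genes of the unfolded protein and ATF4 response 1 was higher there. None of these lists had such a gene in the eye cup. Over all genes, 2.03% were higher and 1.73% lower in the retina at an unadjusted p under 0.05. In the eye cup 0.954% were higher and 0.917% lower. Among 4 tested genes known to vary between mouse substrains, Entpd4b and Ide were lower in the retina and none differed in the eye cup at that p. Entpd4b had 25, 28 and 21 counts in PRDM13-OE retinas and 376, 21 and 38 in wildtype retinas, so a single wildtype mouse set its difference.

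Mitochondrial transcripts appeared among the 10 retinal genes with the smallest p. The mitochondrially encoded mt-Co3 had 556, 705 and 681 counts in PRDM13-OE retinas and 541, 492 and 568 in wildtype retinas, which did not overlap in CPM. This gave a log2 fold change of 0.55 (SE 0.092, unadjusted p 5.35e-05, edgeR adjusted p 0.553). mt-Atp6 was higher by 0.45 (SE 0.097) and Gm28661, a nuclear pseudogene of mitochondrial sequence, by 0.53 (SE 0.11) on the log2 scale. Rps27a, which encodes a ubiquitin and ribosomal protein fusion and was picked after its values were seen, had 1065, 2778 and 2923 counts in PRDM13-OE retinas and 1363, 1192 and 1271 in wildtype retinas. Its log2 fold change was 1.09 (SE 0.26, unadjusted p 0.00117), and without the library labelled PRDM13-OE mouse 1 it was 1.42 with an adjusted p of 5.28e-06 in the edgeR test. Rps27a overlapped in the eye cup, at a log2 fold change of -0.21 (SE 0.20). The other retinal genes of the 10 were 1700048O20Rik, lower by 0.83 (SE 0.18), Anxa1, an annexin, lower by 0.53 (SE 0.12), and the lens genes Bfsp1, Crybb2 and Cryba1.

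In the eye cup the 10 genes with the smallest p included 3 matrix and signalling genes that were lower without overlap. Mfap4, a microfibril protein, had 2249, 1995 and 1634 counts in PRDM13-OE and 4825, 3090 and 7346 in wildtype. Its log2 fold change was -1.17 (SE 0.25, unadjusted p 0.0021). Sod3, the extracellular superoxide dismutase, had a log2 fold change of -1.19 (SE 0.25), and Penk, the enkephalin precursor, one of -1.69 (SE 0.39). Their retinal log2 fold changes were 0.33, 0.34 and 0.21, all with overlapping groups, and none was called in either tissue. Lef1, a Wnt pathway transcription factor, was lower by 1.19 (SE 0.29) and Tmem158 by 0.93 (SE 0.23) in the eye cup, while Smtnl1, a muscle gene, was higher by 1.64 (SE 0.38).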

How the data were processed

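Neural retinas and eye cups of untreated mice were compared by genotype, 3 against 3 in each tissue. The authors deposited raw read counts per gene for 56748 genes, mapped to GRCm39 by Novogene. The submitters' processing notes name CASAVA and HISAT2, and the counting tool and its strand setting are not given in the sources used here. FPKM values deposited by the authors and their own columns for 12 comparisons (group means, fold changes and p-values) were not used. Reference sequences were annotated transcripts of GRCm39. Gm13394 and Gm12411 were compared with their parent transcripts base by base without gaps. Gm7336 was aligned with blastn 2.17.0+.

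Genotypes were compared by the quasi-likelihood test of edgeR 4.0.16 (TMM factors, no robust fitting, R 4.3.3). Genes needed a total of 10 counts across the libraries of a fit, and p-values were adjusted over all genes by the Benjamini-Hochberg method. Fits were made per tissue, on counts summed per mouse, and as a tissue by genotype interaction with mouse as a block. Scripts were tested on simulated data. Alternatives were DESeq2 1.42.0, limma 3.58.1 (voom), other scalings and filters, covariates, a replicate block and leaving out each mouse. Same-numbered mice of the 2 genotypes did not deviate together (r from -0.546 to 0.094). No libraries were copies of each other.

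Genes named are the members of short lists, the 10 genes with the smallest p per comparison where fewer than 5 were called, genes that differed in both tissues, genes near Rosa26 and those that followed Gm13394. The gene lists and comparisons were chosen with earlier results of these data known. Depth limits were taken as 3 counts per library and cover counting error only.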

Additional observations from a re-analysis of the deposited data

How the results depend on the processing

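With 3 mice per group and 0 calls in edgeR, the counts of calls moved with the tool and with single mice. In the retina, DESeq2 called 2 genes, testing without a filter on low counts 47 (24 higher, 23 lower), and dropping the fold threshold 1, Rpl21. In the eye cup DESeq2 called 3. Summed per mouse, DESeq2 called 7 and voom with mouse as a random block 1, Gm12411. DESeq2 called 1 gene in both tissues in the same direction. Leaving out each mouse in turn gave 0 to 3 calls in the retina, 0 to 298 in the eye cup, 0 to 512 summed per mouse, 0 to 49 in the interaction and 0 to 1 in both tissues. The 298, 512 and 49 all came without PRDM13-OE mouse 1, and retinal calls came without PRDM13-OE mouse 1, PRDM13-OE mouse 3 or wildtype mouse 3. A replicate block on the mouse number gave 0 calls in each comparison, and the interaction without its mouse block also 0. Of 79 recomputed counts, 65 stayed within 1.5 times and 14 moved. Of 913 recomputed values of single genes, 826 kept direction and side of the threshold, and 1 reversed: Cryaa in the retina was 0.0825 on the log2 scale with the lens crystallin level as a covariate, which takes out that level by construction. Rpl21 in the retina lost its adjusted p under 0.05 without wildtype mouse 1, with that covariate (adjusted p 0.9998) and with all 12 retinas in one fit. The signs of 117 of 124 list medians held under other scalings.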
